A study of Mus musculus with 6 samples.

Results

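The enzymes that carry long-chain fatty acids into the mitochondrion and shorten them there were examined in the liver of mice fed a ketogenic diet or chow. They were taken as 10 genes: Cpt1a, Slc25a20, Cpt2, Acadvl, Acadl, Acadm, Hadha, Hadhb, Hadh and Acaa2. Every probe set that the platform annotation assigns to exactly 1 of these symbols was used, which gave 21 of the 45101 probe sets of the array. Of these, 19 passed a filter on dim signals, and each of the 10 genes kept at least 1. Liver RNA of C57BL/6 mice was hybridized to 6 one-colour Affymetrix arrays, 3 per diet. From an age of 8 weeks the mice ate chow (Labdiet 5008 of Pharmserv) or the ketogenic diet (F3666 of Bio-Serv), which is very rich in fat and very poor in carbohydrate, for 6 weeks. Livers were taken in the morning without a fast, and the labels name no genetic change. The design text speaks of RNA from 2 to 3 animals per diet, and the labels do not say if RNA was pooled. The p-values therefore rest on the spread between these arrays alone, and that spread may be technical.

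Long-chain fatty acids cross the mitochondrial membranes as carnitine esters. Inside, each round of beta-oxidation removes an acetyl-CoA unit in a dehydrogenation, a hydration, another dehydrogenation and a thiolytic cleavage. In the liver much of this acetyl-CoA is turned into ketone bodies, and the genes of the pathway are known targets of PPAR-alpha, the nuclear receptor that senses fatty acids.

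Overall brightness differed between arrays. Trimmed by 2%, the mean signal was 39.9 to 53.5 on chow and 45.8 to 61.0 on ketogenic arrays, and the geometric mean of the hybridization controls, spiked in at a set amount, was 633.2 to 650.3 and 478.3 to 511.2. For actin, the signal at the 3' end over that at the 5' end, which rises with RNA degradation, was 2.00 to 2.20 and 1.49 to 1.63. For Gapdh the same ratio overlapped between the diets, at 0.761 to 0.972 on chow and 0.775 to 0.812 on ketogenic arrays. Hepatocyte markers were bright, with summed signals over 8 genes of 53289 to 57786 on chow and 40419 to 47010 on ketogenic arrays. Of these genes 2 fell and 0 rose. Those that fell were Cps1, with means of 5836 on chow and 1730 on ketogenic arrays, and Tat, with 3088 and 769. The others were not called, with log2 changes from -0.34 (Fgb) to 0.04 (Ahsg). Macrophage markers summed to 1038 to 1308 and 3658 to 5492 (8 of 10 rose), and stellate cell markers to 1200 to 1514 and 3351 to 4954 (6 of 9 measured rose). Over all probe sets 4.08% rose and 0.564% fell (limma adjusted p under 0.05). In bulk liver, fewer cells of a type and less RNA per cell cannot be told apart. Each of the 5 skeletal muscle markers was brightest on ketogenic array 2, where their signals summed to 947.3 against 29.2 to 47.6 elsewhere. On this array Acta1, skeletal muscle actin, had a signal of 424.1 against 2.7 to 15.4 on the other arrays. Of 3 fat tissue markers, Adipoq and Lep were under the background of 10.8 on all 6 arrays, and Retn had signals of 13.7 to 34.9 on chow and 3.1 to 31.2 on ketogenic arrays. The part of these differences in the results below was not tested, except where values without an array or under another scaling are given.

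All 10 enzymes had a higher mean log2 signal on the ketogenic diet, and none passed the test. The highest values were those of Acadl, a long-chain acyl-CoA dehydrogenase, at 1.88 times the chow mean, and Hadhb, the thiolase subunit of the trifunctional protein, at 1.83 times. The lowest were Acaa2, the mitochondrial thiolase, and Slc25a20, the carnitine carrier, at 1.09 and 1.10 times. In limma's fit to all 22515 probe sets that passed the filter, 0 of the 19 probe sets of these enzymes were called at an adjusted p under 0.05, against 4.64% of all probe sets. At an unadjusted p under 0.05, 2 of the 10 representative probe sets were higher and 0 lower, where 16.2% of all probe sets were higher and a smaller share lower. A gene is represented here by its brightest probe set (mean log2 signal over the 6 arrays). The log2 changes of the 10 representatives ran from 0.13 to 0.97 with a median of 0.45. The median of all probe sets was 0.22, and 68.2% of them were positive. All 3 ketogenic arrays lay above all 3 chow arrays for 4 of the 10 enzymes, and for 21.6% of all probe sets. The moderated standard error of the representatives was 0.24 to 0.35 on the log2 scale. Among the 1074 probe sets at least as bright as the dimmest representative, the smallest log2 change called was 1.14. All 10 representatives changed by less than this, so the lack of calls does not show that they were unchanged.

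**Figure D1:**
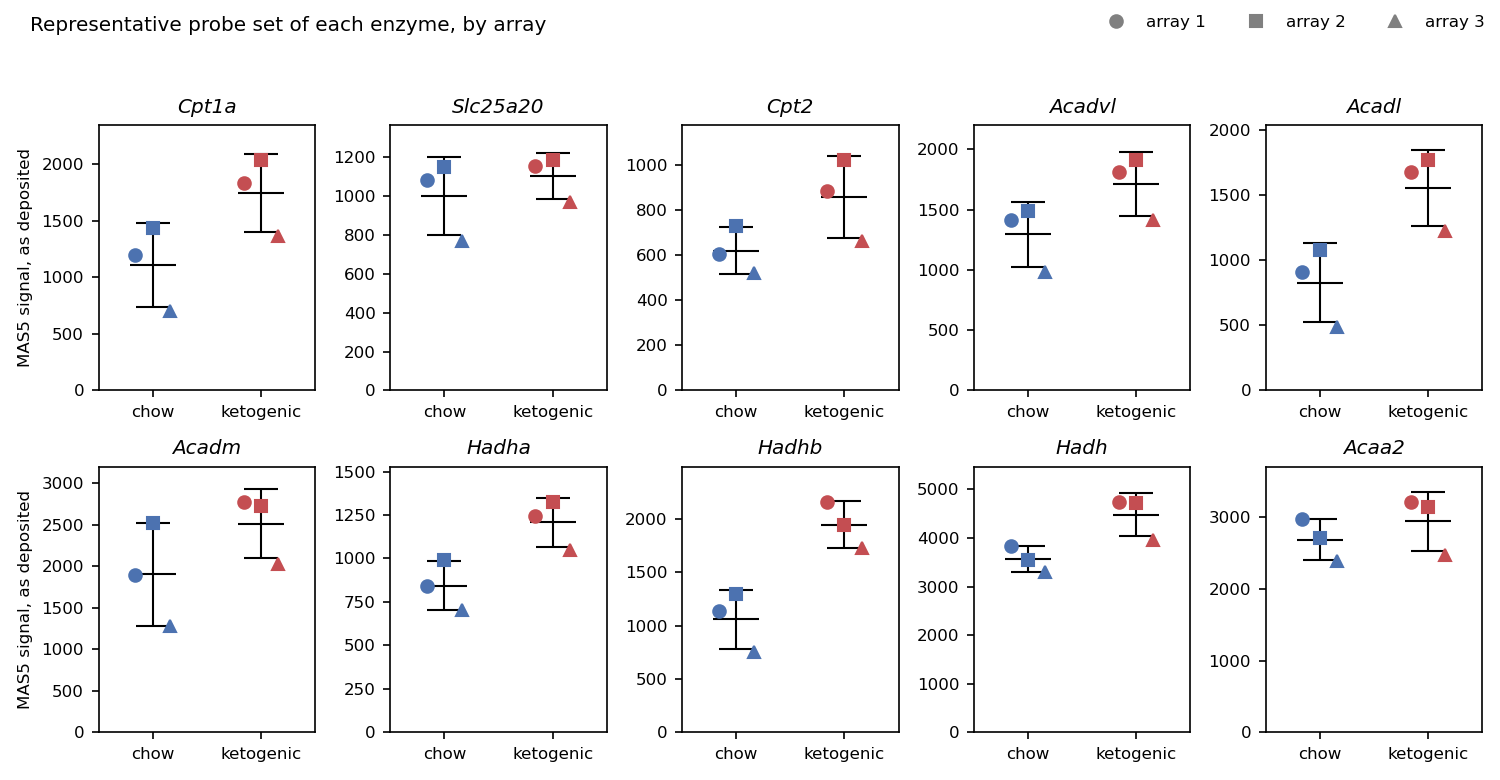
MAS5 signal as deposited (vertical axis, linear, from 0) of the representative probe set of each enzyme on the 3 chow and 3 ketogenic arrays. Symbols mark the array, and bars the mean and SD of a diet. Array 3 is the lowest of its diet in all 10 panels, and the diets do not overlap for Acadl, Hadha, Hadhb and Hadh.

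The entry into the mitochondrion is made by carnitine palmitoyltransferase 1 (Cpt1a, the liver form), the carrier Slc25a20 and carnitine palmitoyltransferase 2 (Cpt2). The transcript of Cpt1a, the gatekeeper that malonyl-CoA inhibits, had signals of 1198, 1434.8 and 706 on chow arrays 1, 2 and 3. On ketogenic arrays 1, 2 and 3 they were 1833.8, 2043.2 and 1368.2. Only ketogenic array 3 overlapped the chow range, and only with chow array 2. The log2 change of Cpt1a was 0.69 ± 0.33 (SE), with a 95% interval of -0.06 to 1.44 and limma adjusted p = 0.285. This interval allows any ratio from 0.962 to 2.72. Without chow array 3 the log2 change of Cpt1a was 0.39. The remaining 2 probe sets of Cpt1a gave -0.21 and -0.03, so the mean of the probe sets of Cpt1a gave 0.15.

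Slc25a20, which exchanges acylcarnitines for carnitine across the inner membrane, had signals of 1082.9, 1148 and 770.5 on chow and 1156.4, 1188.2 and 969.2 on ketogenic arrays. The diets overlapped, and the log2 change was 0.16 ± 0.26 (SE) with limma adjusted p = 0.773. Its second probe set had a log2 change of 0.33. With a common trimmed mean the log2 change of Slc25a20 was -0.05, and with 1 array left out it ran from -0.02 (without chow array 3) to 0.27 (without chow array 2). Cpt2, which turns the acylcarnitine back into acyl-CoA in the matrix, had signals of 606.1, 729.3 and 520.7 on chow and 884, 1022.7 and 663.3 on ketogenic arrays. Here too ketogenic array 3 alone fell within the chow range. Cpt2 had a log2 change of 0.46 ± 0.28 (SE), with limma adjusted p = 0.391. A dim second probe set of Cpt2 ran the other way, at 59.5, 41.8 and 38.6 on chow and 28.1, 38 and 12.6 on ketogenic arrays. Its log2 change was -0.94 ± 0.41 (SE), with an unadjusted p = 0.0497 and limma adjusted p = 0.249, and the mean over both probe sets of Cpt2 was -0.24.

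The first dehydrogenation is shared by acyl-CoA dehydrogenases that differ in the chain length they prefer: Acadvl for very long, Acadl for long and Acadm for medium chains. Acadl had signals of 909.9, 1081.1 and 488.5 on chow and 1673.1, 1771.9 and 1224.4 on ketogenic arrays. Every ketogenic array lay above every chow array, and chow array 3 was the lowest by a wide margin. The log2 change of Acadl was 0.97 ± 0.35 (SE), with a 95% interval of 0.19 to 1.76, an unadjusted p = 0.021 and limma adjusted p = 0.162. Without chow array 3 it was 0.63 (adjusted p = 0.33). Its second probe set lay near the background, at 0.9 to 4.4 on chow and 8.1 to 15.8 on ketogenic arrays, and did not pass the filter.

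Acadvl, bound to the inner membrane, had signals of 1410.4, 1488.5 and 984.6 on chow and 1808.3, 1914.4 and 1410.3 on ketogenic arrays. Ketogenic array 3 and chow array 1 had nearly the same signal. Acadvl had a log2 change of 0.41 ± 0.27 (SE), with limma adjusted p = 0.44. Acadm, the enzyme missing in the commonest inherited defect of fat oxidation, had signals of 1893.4, 2523.8 and 1286.1 on chow and 2777.7, 2722.2 and 2030.6 on ketogenic arrays. The chow arrays of Acadm spanned a ratio of 1.96 and the ketogenic ones 1.37, and chow array 2 lay above ketogenic array 3. The log2 change of Acadm was 0.44 ± 0.31 (SE), with limma adjusted p = 0.47. Without chow array 3 it was 0.18 for Acadm and 0.23 for Acadvl, and without chow array 2 it was 0.67 for Acadm.

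The mitochondrial trifunctional protein carries out the remaining steps on long chains. Hadha encodes its hydratase and 3-hydroxyacyl-CoA dehydrogenase subunit and Hadhb its thiolase subunit. Hadha had signals of 839.2, 988.7 and 703.5 on chow and 1245.4, 1326.9 and 1049.6 on ketogenic arrays, without overlap. Hadha had a log2 change of 0.52 ± 0.25 (SE), with a 95% interval of -0.06 to 1.10 and limma adjusted p = 0.297. Hadhb had signals of 1136, 1291.5 and 753.3 on chow and 2160.9, 1946.3 and 1724.6 on ketogenic arrays, and its lowest ketogenic array stood 433.1 above its highest chow array. Its log2 change of 0.90 ± 0.28 (SE) had the smallest p of all these probe sets, 0.0115 unadjusted, with a 95% interval of 0.26 to 1.55 and limma adjusted p = 0.117. A second probe set of Hadhb gave another picture, with signals of 603.9, 847.9 and 386 on chow and 571.3, 814.1 and 408.4 on ketogenic arrays. Its log2 change was -0.02 ± 0.37 (SE), so the mean of both kept probe sets of Hadhb was 0.44 (adjusted p = 0.446). Another probe set lay at 1.4 to 16.2 and did not pass the filter.

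Hadha and Hadhb are neighbours in the mouse genome and are read in opposite directions. In the RefSeq annotation of build GRCm38.p6 272 bases lie between their first transcribed bases, so that 228 bases belong to the 250-base windows upstream of both. The window upstream of Hadhb, chr5:30155003-30155252 on the plus strand, is shown because both subunits are read from it. It lies outside both annotated transcripts. Capitals mark matches to the motifs given with the other windows further on.
Hadhb: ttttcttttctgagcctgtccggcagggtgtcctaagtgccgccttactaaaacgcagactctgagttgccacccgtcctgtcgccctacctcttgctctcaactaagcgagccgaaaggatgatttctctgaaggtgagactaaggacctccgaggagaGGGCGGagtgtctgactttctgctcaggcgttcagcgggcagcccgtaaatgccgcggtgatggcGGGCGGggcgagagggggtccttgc
Both capital stretches are GC boxes, and the first also lies in the window of Hadha.

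The last steps on shorter chains fall to Hadh, the short-chain 3-hydroxyacyl-CoA dehydrogenase, and Acaa2, the matrix 3-ketoacyl-CoA thiolase. Hadh had signals of 3841.1, 3543.6 and 3306.3 on chow and 4745.4, 4719.5 and 3964.6 on ketogenic arrays. Its representative is one of the probe sets that can also match other transcripts. The diets did not overlap, and the chow SD was 7.52% of the mean, the smallest of the 10 enzymes. The log2 change of Hadh was 0.33 ± 0.24 (SE) with limma adjusted p = 0.48, and its other probe sets gave 0.54 and 0.58. Without chow array 3 the last of these was -0.10. Acaa2 had signals of 2964.6, 2700.1 and 2390.9 on chow and 3212.6, 3135.9 and 2469 on ketogenic arrays. The diets overlapped, and the log2 change of Acaa2 was 0.13 ± 0.25 (SE) with a 95% interval of -0.44 to 0.69 and limma adjusted p = 0.81. Its other probe sets gave 0.12 and 0.13, so the 3 probe sets of Acaa2 differed by less than their errors. With 1 array left out its representative gave 0.05 (without chow array 3) to 0.25 (without ketogenic array 3). The interval of its representative allows a ratio of up to 1.61.

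**Figure D2:**
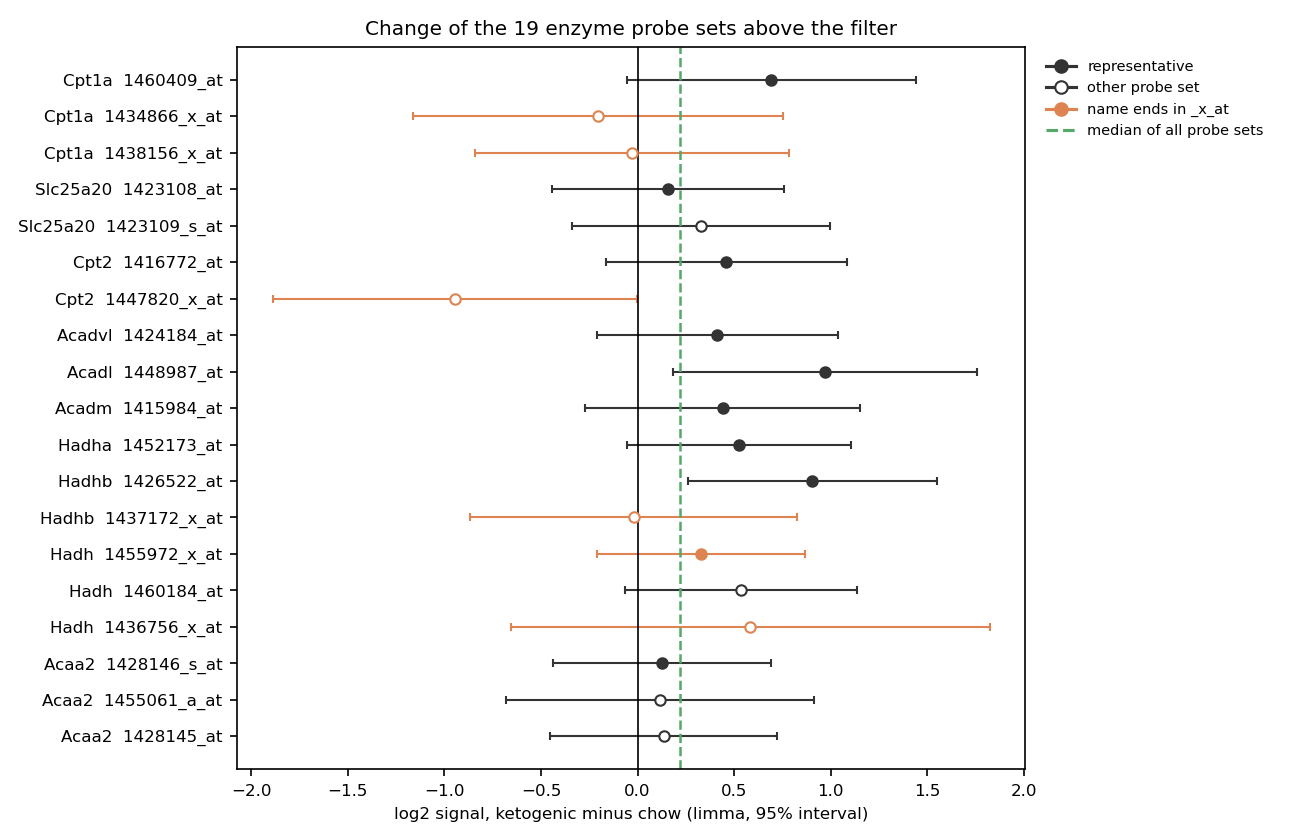
Log2 change, ketogenic minus chow, with its 95% interval from limma (horizontal axis) for the 19 probe sets above the filter, in pathway order. The dashed line is the median of all probe sets, 0.22. The 4 probe sets left of 0 have names that end in _x_at. The intervals of Acadl and of the representative of Hadhb lie right of 0. That of the second probe set of Cpt2, -1.89 to -0.0016, lies left of 0.

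Probe sets of 1 gene did not always run alike. The suffix _x_at marks probe sets in which some probes also match other transcripts. Of the 6 such probe sets here 4 were lower and 2 higher on the ketogenic diet, while the 13 others were all higher. The 13 include probe sets ending in _s_at or _a_at, which can also be shared between transcripts, among them the representative of Acaa2. Of the 6, 5 were dimmer than the representative of their gene, against 4 of the 13. Suffix and brightness are therefore not separated here. The ratio of 2 probe sets within an array does not change when an array is scaled by 1 factor, though quantile normalization can change it. For Hadhb the ratio of the representative to the second probe set was 1.88, 1.52 and 1.95 on chow and 3.78, 2.39 and 4.22 on ketogenic arrays. For Cpt1a the ratio to the brighter of the other probe sets was 10.8, 6.90 and 7.69 on chow and 16.3, 11.6 and 19.6 on ketogenic arrays. In both genes the ratio was higher on every ketogenic than on every chow array. For Cpt2 the ratio to its second probe set was 10.2, 17.4 and 13.5 on chow and 31.5, 26.9 and 52.6 on ketogenic arrays, the widest separation. Slc25a20 ran the other way, with ratios of 2.54, 2.40 and 2.83 on chow and 2.23, 2.27 and 2.40 on ketogenic arrays, barely apart. In Hadh and Acaa2 the ratios to both other probe sets overlapped between the diets. Which of them follows the transcript was not tested.

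Partner enzymes were compared in the same way, by the ratio of their representative signals within an array, in 5 pairs chosen after the values were seen. The Hadhb to Hadha ratio was 1.35, 1.31 and 1.07 on chow and 1.73, 1.47 and 1.64 on ketogenic arrays. The Acadl to Acadm ratio was 0.481, 0.428 and 0.38 on chow and 0.602, 0.651 and 0.603 on ketogenic arrays, and the Acadl to Acadvl ratio 0.645, 0.726 and 0.496 against 0.925, 0.926 and 0.868. In these pairs the ratio was higher on every ketogenic than on every chow array. The Cpt1a to Cpt2 ratio was 1.98, 1.97 and 1.36 on chow and 2.07, 2.00 and 2.06 on ketogenic arrays, a gap that is narrow except for chow array 3. The Acadm to Acadvl ratio overlapped, with means of 1.45 ± 0.22 and 1.47 ± 0.06 (SD, n = 3). A two-sided exact permutation test gave p = 0.1 for each of the 4 pairs without overlap, the smallest that 3 against 3 arrays allow. Adjusted over the 5 pairs, this test gave 0.125. The pairs were chosen with the values in view, and these 4 set an enzyme with a higher log2 change over one with a lower. Neither p-value allows for that choice, so no conclusion is drawn from them. The same exact permutation test gave p = 1 for Acadm to Acadvl.

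**Figure D3:**
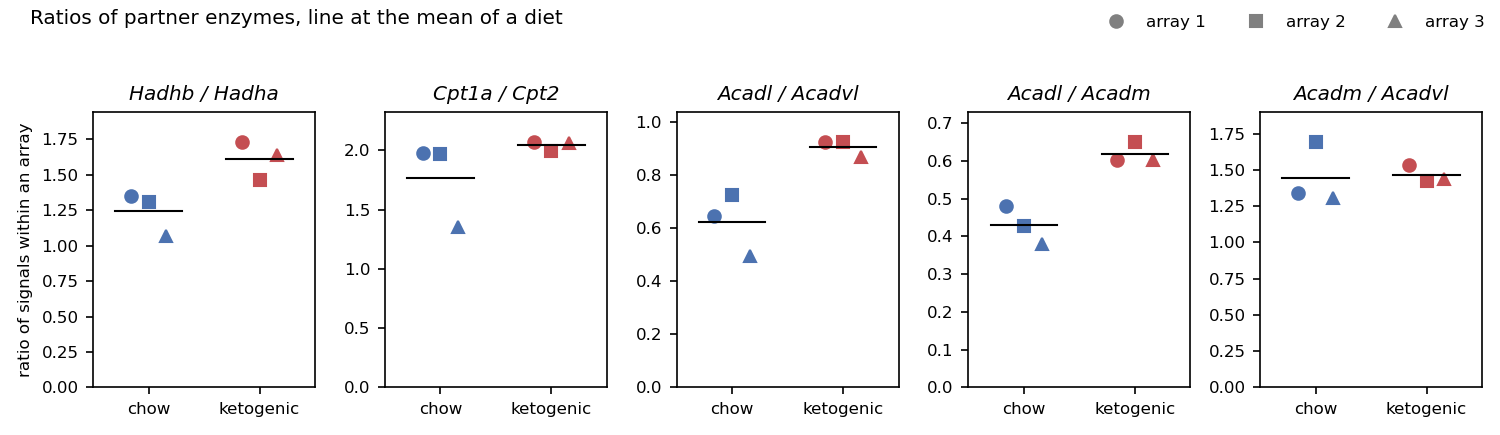
Ratio of the signals of partner enzymes within each array (vertical axis, linear, from 0), with a line at the mean of each diet. The diets are apart for all pairs except Acadm to Acadvl, and the Hadhb to Hadha means are 1.24 on chow and 1.61 on ketogenic arrays.

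The order of the arrays was much alike in all 10 enzymes. Chow array 3 and ketogenic array 3 had the lowest signal of their diet for all 10, and they also had the lowest trimmed mean signal of their diet. Scaled to a common trimmed mean, the median log2 change of the enzymes was 0.24, and the change was positive for 8 of 10, with Slc25a20 and Acaa2 at -0.05 and -0.09. With a common array median it was 0.34, with quantile normalization 0.44 and scaled to the hybridization controls 0.81. The median of all probe sets was 0.01, 0.11, -0.01 and 0.58 under these scalings. The diets did not overlap for 3, 4, 8 and 10 of the 10 enzymes, all with the ketogenic arrays above, against 17.3%, 22.2%, 16.3% and 48.9% of all probe sets. Acadl, Hadha and Hadhb were without overlap under every one of these scalings.

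**Figure D4:**
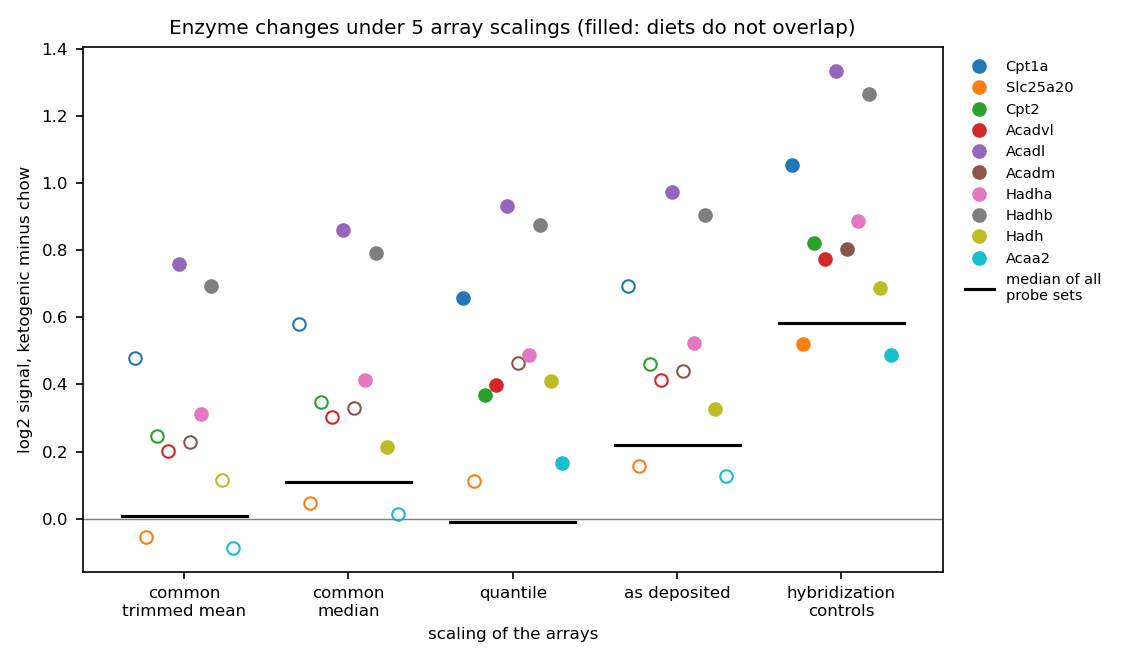
Log2 change of the representative probe set, ketogenic minus chow (vertical axis), under 5 ways of scaling the arrays (horizontal axis). Filled points are enzymes whose diets do not overlap, and black lines are the median of all probe sets. Acadl and Hadhb are the highest under each scaling, and Slc25a20 and Acaa2 the lowest.

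Calls appeared under some settings. Scaled to the hybridization controls, 7 of the 19 probe sets were higher at an adjusted p under 0.05 (Cpt1a, Cpt2, Acadl, Hadha, Hadhb and 2 of Hadh), against 22.7% of all probe sets called in either direction. When limma's prior variance was both made robust and allowed to follow the signal level, 2 of 19 were called, Hadhb (adjusted p = 0.0111) and Acadl (0.0436), against 8.31% of all probe sets. Their standard errors were then 0.21 and 0.27 in place of 0.28 and 0.35. The same 2 were called (0.0238 and 0.0288) when the dimmest 75% of probe sets were left out, against 13% of those that remained. No probe set of the enzymes was called with a common array median (6.13% of all), a common trimmed mean (5.29%), quantile normalization (4.44%), a higher floor (5.31%) or no filter (0.395%). None was called in a fit over genes (7.39%), on the mean of a gene's probe sets (7.28%) or without the probe sets shared between transcripts (3.85%). The same held without chow array 1 (4.61%), 2 (3.3%) or 3 (3.14%), and without ketogenic array 1 (2.03%), 2 (1.99%) or 3 (1.38%).

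On chow, array 2 stood apart in several of these genes. With arrays scaled to a common trimmed mean, the signal of chow array 2 was 1.61 times the mean of the other chow arrays for Acadm and 1.55 times for Cpt1a. For the 10 enzymes the median of this ratio was 1.29, it was over 1 for 9, and it was 0.989 for Hadh. Of all probe sets 47.2% were over 1, with a median of 0.981. Single other genes of fatty acid handling, named after their values were seen, differed more, but their lists as a whole did not. The median of the ratio was 1.07 for 8 peroxisomal genes, with 5 over 1. For 9 other PPAR-alpha targets it was 1.21, with 7 over 1. For the 25 other genes listed with mitochondrial oxidation it was 1.16, with 17 over 1 and Acot2 the highest at 4.61. For 8 hepatocyte markers it was 1.07, with 5 over 1. The highest of the peroxisomal genes and other PPAR-alpha targets were the following. Cyp4a14, a fatty acid omega-hydroxylase, had a signal of 5490 on chow array 2 against 1208 and 502.1 on the other chow arrays and 2888 to 3708 on ketogenic arrays. Acot1, an acyl-CoA thioesterase, had 458.8 on it against 105.2 and 65.9, and Ehhadh, a peroxisomal bifunctional enzyme, 2363 against 1096 and 707. Without chow array 2 the median log2 change of the 10 enzymes was 0.62, with 0.22 for all probe sets, and 0 of 19 probe sets were called. Without chow array 2 and ketogenic array 2, which held the muscle markers, it was 0.51, again with 0 called (2.52% of all).

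Among 25 further measured genes of the mitochondrial pathway 0 passed limma's test, 7 were higher and 2 lower at an unadjusted p under 0.05, and the median log2 change was 0.34. The list holds auxiliary and short-chain enzymes, electron transfer and the control of entry. It also holds enzymes of branched-chain amino acids and propionate. The brightest of the 25 were Ech1, a dienoyl-CoA isomerase, and Etfa, a subunit of the electron transfer flavoprotein. Signals of Ech1 were 1532 ± 329.6 on chow and 2468 ± 278.4 on ketogenic arrays (SD, n = 3), and those of Etfa 1597 ± 381.8 and 1641 ± 257.8. Ech1 had a log2 change of 0.70 ± 0.27 (SE) with limma adjusted p = 0.185, and Etfa one of 0.06 ± 0.28. For Acads, the short-chain acyl-CoA dehydrogenase, the log2 change was 0.63 ± 0.27 (SE; adjusted p = 0.244), and for Etfdh, which passes the electrons to the respiratory chain, 0.73 ± 0.32 (SE; adjusted p = 0.245). The following were named after their values were seen. Acot2, a mitochondrial acyl-CoA thioesterase, had signals of 36.8, 121.1 and 17.8 on chow and 191, 259.4 and 192.1 on ketogenic arrays, with a log2 change of 2.30 ± 0.60 (SE) and limma adjusted p = 0.0698. Acot2 passed in 6 of the 18 alternatives, among them the fit without chow array 2 (adjusted p = 0.0049). Acadsb, which acts on short branched chains of amino acid origin, was lower with a log2 change of -0.83 ± 0.24 (SE) and adjusted p = 0.1, and passed in 5, among them a common array median, a common trimmed mean and quantile normalization (limma adjusted p = 0.022, 0.022 and 0.0247).

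Of 10 measured regulators of the pathway, 0 passed the threshold in limma's test and 0 had an unadjusted p under 0.05. Over all probe sets, for comparison with these lists, 4.08% rose and 0.564% fell past the threshold. At an unadjusted p under 0.05 16.2% were higher and a smaller share lower, and the median log2 change was 0.22. No conclusion is drawn from the counts of lower genes in these lists. Ppara, the receptor itself, had a log2 change of 0.25 ± 0.33 (SE) with limma adjusted p = 0.709. Its coactivator Ppargc1a had a log2 change of -0.13 ± 0.34 (SE), and the liver factors Hnf4a and Creb3l3 had 0.00 and -0.23. Of 8 measured peroxisomal counterparts of the pathway, 0 passed and 2 were higher at an unadjusted p under 0.05, with a median log2 change of 0.46. The brightest were Acaa1b, a peroxisomal thiolase, with a log2 change of 0.27, and Abcd3, a peroxisomal transporter, with -0.25. Of 16 measured genes of general mitochondrial function, 1 rose and 0 fell, with a median log2 change of 0.11. Slc25a4, an adenine nucleotide carrier, rose by 1.70 ± 0.31 (log2, SE) with limma adjusted p = 0.021, and for Cs, citrate synthase, the log2 change was 0.62 ± 0.24 (SE; adjusted p = 0.19). The call of Slc25a4 was lost without ketogenic array 2 (adjusted p = 0.0678) or 3 (0.067) and with no filter (0.118). Of 9 other PPAR-alpha targets, 4 rose and 0 fell: Fgf21 by 4.44, Cd36 by 2.77, Pdk4 by 2.70 and Vnn1 by 1.72 (log2). These encode a secreted hormone, a fatty acid transporter, a kinase that shuts off pyruvate dehydrogenase, and a pantetheinase. Fgf21 and Cd36 stayed past the threshold with any 1 array left out, while without a filter on dim probe sets Cd36 was lost (limma adjusted p = 0.0716), as were Pdk4 (0.0925) and Vnn1 (0.163). Pdk4 was also lost without ketogenic array 3 (adjusted p = 0.0554) and Vnn1 without any 1 ketogenic array (0.0816 to 0.0991). Downstream in ketone body synthesis, Bdh1, which reduces acetoacetate, rose by 1.55 ± 0.33 (log2, SE) with limma adjusted p = 0.0335, a call lost without any 1 array except chow array 1 (adjusted p = 0.0733 to 0.101) and lost with no filter (0.156).

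**Figure D5:**
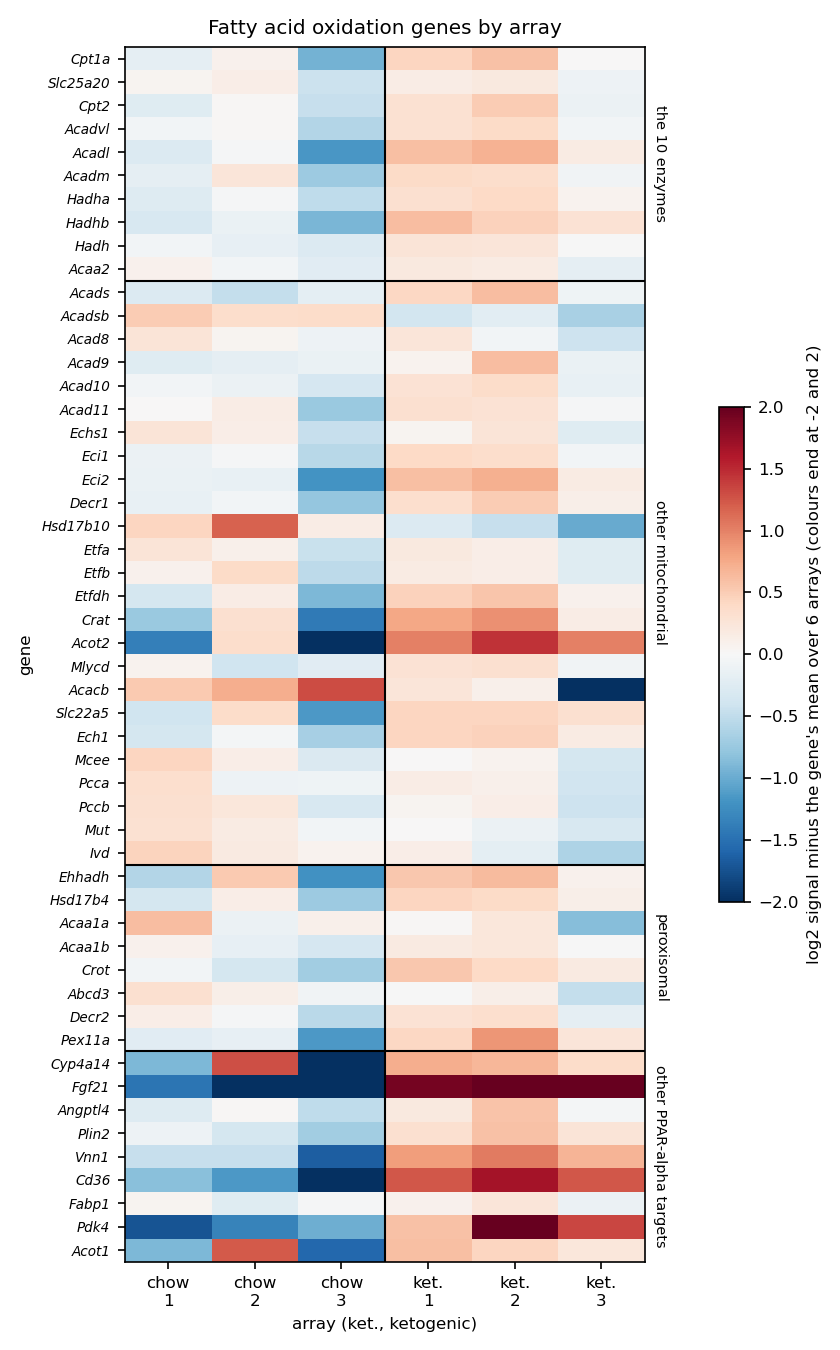
Log2 signal minus the gene's mean over the 6 arrays, as deposited, on each array (columns). Rows are the 10 enzymes, 25 other genes listed with mitochondrial oxidation (branched-chain amino acid and propionate enzymes included), 8 peroxisomal genes and 9 other PPAR-alpha targets. Chow array 3 is the bluest column for the 10 enzymes, and chow array 2 stands out in Cyp4a14 and Acot1.

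Upstream windows of 9 of the 10 genes were matched in RefSeq's promoter sequences of build GRCm38.p6, and the 250 bases before each start site were searched on both strands for 7 motifs. The GC box, GGGCGG, was present in 7 of the 9, against 42.7% of the windows of 17492 protein-coding genes. The windows of Hadha and Hadhb share 228 of their 250 bases, so the 9 windows are not all separate sequences. The only GC box of Hadha is also counted for Hadhb. No window of the 9 held the TATA box TATAAA, which 12.4% of all windows hold. The nuclear receptor half-site AGGTCA was present in Acadm, Acadvl and Cpt1a, against 12.6% of all windows. The direct repeat of this half-site with 1 free base between the copies, the form bound by PPAR-alpha with its partner RXR, was in none of the 9 and in 0.0457% of all windows. CCAAT was in Hadh and Cpt1a (36.3% of all). AAGGTCA, which overlaps the half-site, and GCATGCGC, the core bound by nuclear respiratory factor 1, were in Acadm only, against 3.58% and 2.99%. A match is a description of the letters, and these windows do not cover first introns. The GC content of the 9 windows was 49.6% to 68%, with 8 of 9 above the median of 55.2% of all windows.

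The windows of the enzymes with a high, a middle and a low log2 change are shown for comparison, with matches in capitals. They lie at chr1:66863310-66863559 on the minus strand (Acadl), chr3:153944644-153944893 on the minus strand (Acadm) and chr9:108661886-108662135 on the plus strand (Slc25a20).
Acadl: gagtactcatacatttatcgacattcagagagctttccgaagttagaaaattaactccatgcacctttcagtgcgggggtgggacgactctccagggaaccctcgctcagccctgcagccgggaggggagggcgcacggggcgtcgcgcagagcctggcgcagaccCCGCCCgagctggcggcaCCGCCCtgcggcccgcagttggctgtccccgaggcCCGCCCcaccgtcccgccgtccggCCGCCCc
Acadm: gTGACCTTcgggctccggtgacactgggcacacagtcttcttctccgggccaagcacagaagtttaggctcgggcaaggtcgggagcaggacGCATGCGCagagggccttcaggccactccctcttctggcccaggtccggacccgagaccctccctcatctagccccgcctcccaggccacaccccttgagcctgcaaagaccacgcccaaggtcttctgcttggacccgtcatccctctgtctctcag
Slc25a20: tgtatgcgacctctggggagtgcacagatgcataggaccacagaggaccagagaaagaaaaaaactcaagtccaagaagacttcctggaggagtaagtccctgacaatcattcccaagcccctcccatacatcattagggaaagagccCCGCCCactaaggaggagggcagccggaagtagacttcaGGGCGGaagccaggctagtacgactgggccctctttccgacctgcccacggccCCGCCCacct
Acadl (log2 change 0.97) and Slc25a20 (0.16) both hold several GC boxes and no half-site, while Acadm (0.44) holds a half-site and the factor 1 core and no GC box.

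The enzymes were also set against the mean of all 10 on the same array, a measure that necessarily puts some of them below 0. Ketogenic minus chow on this log2 scale was 0.47 for Acadl, 0.40 for Hadhb, 0.19 for Cpt1a and 0.02 for Hadha. Cpt2 had -0.04, Acadm -0.06, Acadvl -0.09, Hadh -0.18, Slc25a20 -0.34 and Acaa2 -0.38. These values are the same under any scaling by 1 factor per array, but not under quantile normalization. The genes whose profile over the 6 arrays lay closest to the mean profile of the enzymes were Shtn1, Suclg2 and Akap11, with mean absolute differences of 0.0325, 0.0381 and 0.0404 on the log2 scale, among 11856 genes. The 10 enzymes themselves lay at 0.0443 to 0.235 from that mean.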

How the data were processed

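Liver RNA of 6 samples, 3 chow and 3 ketogenic, was measured on one-colour arrays. The deposited values are linear intensity (signal) per probe set, for which the submitters' processing notes name GCOS and MAS5. No source used here gives versions, scaling target or settings. Replicates were numbered in order of deposition and pair no samples.

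From these values, signals were raised to a floor of 1.1 (10th percentile of the table), taken to log2, and kept at or above the median mean log2 signal of 3.35 (signal 10.2), which left 22515 probe sets without the 64 controls. The normalization was kept as deposited. Limma 3.58.1 (lmFit, then eBayes; R 4.3.3) compared the diets in two-sided tests, with Benjamini-Hochberg adjustment over all kept probe sets, a threshold of 0.05, and 4 residual and 4.68 prior degrees of freedom. The fit was tested on simulated data, where over 20 draws it recovered 0.8% of 2-fold and 44.5% of 4-fold changes. All 10 representatives changed by less than 2-fold, so the lack of calls does not show that they were unchanged. The small number of arrays limits the precision. Background (10.8) is the 95th percentile of 27 control probe sets for bacterial RNA, averaged over arrays.

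Of the probe sets 34958 had 1 symbol, 932 several and 9211 were not listed. Named genes were all 10 enzymes and, from each further list, those past the threshold (up to 6), or else the 2 brightest, with Ppara, Ppargc1a, Acads, Etfdh and Cs always. Genes of the lists without an entry are not analysed here. The enzymes and lists were chosen with earlier results of these data known. Alternatives were 4 scalings, another floor and 2 filters, a fit over genes, the mean of a gene's probe sets, probe sets without s, x and a suffixes, a trended robust prior and each array left out. Leaving out chow array 2 and ketogenic array 2 together was chosen after seeing the data.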

Additional observations from a re-analysis of the deposited data

How the results depend on the processing

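The count of called probe sets of the 10 enzymes was 0 of 19 as deposited, where 4.64% of all probe sets were called. It was 7 of 19 on the scale of the hybridization controls (22.7% of all). With the filter at the 75th percentile it was 2 of 18 (13%), and with a trended robust prior 2 of 19 (8.31%). Under every other alternative run, each left-out array included, it was 0, with 0.395% to 7.39% of all called. The median log2 change of the 10 enzymes was 0.45, became 0.812 when scaled to the hybridization controls, and ranged from 0.309 to 0.615 with 1 array left out. The other mitochondrial oxidation genes past the threshold, 0 as deposited, numbered 1 with a common median, with trimmed means made equal, after quantile normalization, a fit over genes, the mean of probe sets, or without chow array 2 and ketogenic array 2, 8 when scaled to the hybridization controls, 6 with the filter at the 75th percentile, 4 with a trended robust prior and 0 to 2 with 1 array left out. With a common median, with trimmed means made equal and after quantile normalization the 1 call was Acadsb, which was lower. The shares of all probe sets given above stand beside these counts too. The cause of these differences was not tested. Over all probe sets 918 were higher and 127 lower as deposited, or 87.8% higher, against 77.4% with a common median, 66.2% for the trimmed mean, 64.6% after quantile normalization and 97.5% when scaled to the hybridization controls. The count over all was 1045 of 22515 as deposited, 178 of 45037 without a filter and 1461 of 11242 with the filter at the 75th percentile. Of 22515 probe sets it was 5113 on the scale of the hybridization controls and 1872 with a trended robust prior. Without chow array 2 and ketogenic array 2 it was 568, and with 1 array left out 310 to 1037, again of 22515. No paired analysis was possible because the labels carry no replicate numbers. Apart from Cpt2, whose log2 change was -0.242 on the mean of its probe sets, Slc25a20 and Acaa2, negative with a common trimmed mean, and Slc25a20 without chow array 3, the log2 change of each of the 10 enzymes was positive under all 18 alternatives. With no filter the calls of Cd36, Pdk4, Vnn1, Slc25a4 and Bdh1 were lost (limma adjusted p = 0.0716, 0.0925, 0.163, 0.118 and 0.156), and that of Fgf21 was not (0.0477).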
